A study of Mus musculus with 6 samples.

Results

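This account covers 10 genes of cartilage: the transcription factors Sox9, Sox5 and Sox6, and the matrix genes Acan, Hapln1, Matn1, Matn3, Comp, Snorc and Chad. They were taken by symbol from a table of read counts for 27179 mouse gene IDs, and 10 of 10 matched an ID. RNA sequencing was done on calvarial cells of C57Bl/6J pups at an age of 5 days. The cells were freed with collagenase and sorted by flow cytometry on a GFP transgene controlled by Osteocalcin-Cre, which is active in cells of the osteoblast lineage. The labels call them osteoblasts. Of the 6 libraries, 3 carry titles with the word Flox and the genotype Cdc73/Hrpt2 KO, a conditional knockout, and 3 are wildtype. The protein made from Cdc73, parafibromin, belongs to the Paf1 complex, which travels with RNA polymerase II. The labels state that both genotypes were isolated and sorted in the same way, but do not give the Cre or GFP genotype of the wildtype pups. They do not say whether each library was one animal, a litter or a pool, so the p-values rest on a spread between libraries that may be technical.

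Cartilage is a stiff gel in which the large proteoglycan aggrecan, held on hyaluronan by link protein, is trapped in a net of collagen fibrils. Sox9 is the factor without which chondrocytes do not form, and Sox5 and Sox6 act with it to drive cartilage matrix genes. Matrilins, cartilage oligomeric matrix protein and chondroadherin connect the collagen net to the other matrix molecules and to cells. Most calvarial bone forms directly from mesenchyme, but cartilage lies at the base of the skull and beneath parts of the calvaria in the newborn mouse.

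Library totals ran from 13591925 to 20993962 counts. Cdc73 itself measured 13.98, 14.73 and 14.40 CPM in knockout 1, 2 and 3 (counts per unit of library size after TMM scaling, which corrects for differences in RNA composition), and 20.5, 12.8 and 21.7 CPM in wildtype 1, 2 and 3. The groups overlapped, and the log2 fold change of knockout over wildtype was -0.36 ± 0.22 (SE). The whole-gene count thus did not separate the groups and could not check the labels, so directions refer to the libraries as labelled. The osteoblast markers Col1a1 and Col1a2, which encode the chains of type I collagen, were among the most abundant transcripts in all 6 libraries. The sum of 10 osteoblast markers ran from 233200 to 342700 CPM in the knockout and from 277100 to 299800 CPM in the wildtype libraries. Most of that sum came from Col1a1 and Col1a2. Wildtype 1 lay nearer to the knockout libraries than wildtype 2 and 3 did. Its Pearson's r of log2 CPM against the knockout libraries was 0.973 to 0.983, taken over genes, which are not independent replicates. For wildtype 2 and 3 that r was 0.906 to 0.939. Members and lists are therefore also given without wildtype 1.

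All 10 genes had a higher mean in the knockout libraries, by 1.25-fold for Sox6 and by 2.56-fold to 4.97-fold for the other 9. In 8 of the 10 all knockout libraries exceeded all wildtype libraries, where 10.6% of the 13505 genes tested did so. Sox6 and Matn1 were the exceptions. No member passed the threshold in edgeR's quasi-likelihood test (0 of 10, where 0.0% of all genes were called at a Benjamini-Hochberg adjusted p under 0.05). At an unadjusted p under 0.05, 9 of 10 were higher, where 8.26% of all genes were, and 0 were lower, where 6.35% were. The 10 genes were chosen with earlier results of these data known, so these shares are a description and not a test. The median log2 fold change of the 10 genes was 1.84, and that of all genes tested was -0.01. The counts do not show which of the sorted cells this RNA came from. If cartilage cells were among them, a different number of such cells and a different amount of RNA per cell cannot be told apart.

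The comparison depended on which wildtype libraries served as controls. Without wildtype 1, edgeR called 8 of the 10 genes as higher (all but Sox9, adjusted p = 0.0521, and Sox6, adjusted p = 0.107), where 2.13% of all genes were called higher, and the median log2 fold change was 2.59. With wildtype 1 as the only control it called 0 of 10, the median was 0.83, and the lone control was assumed to vary like the knockout libraries. DESeq2, the other count model, called Sox9 (adjusted p = 0.00949) and Sox5 (adjusted p = 0.0264) with all 6 libraries, where 1.93% of genes were called higher. limma voom called 0 of 10. Scaled by library size alone, without TMM factors, only Sox9, Comp and Chad had all knockout libraries above all wildtype libraries, since wildtype 1 then lay above knockout 3 in the other 7, and 2.18% of all genes had no overlap in that direction. Under that scaling the median over all genes tested was -0.21 and that of the 10 was 1.66.

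**Figure D1:**
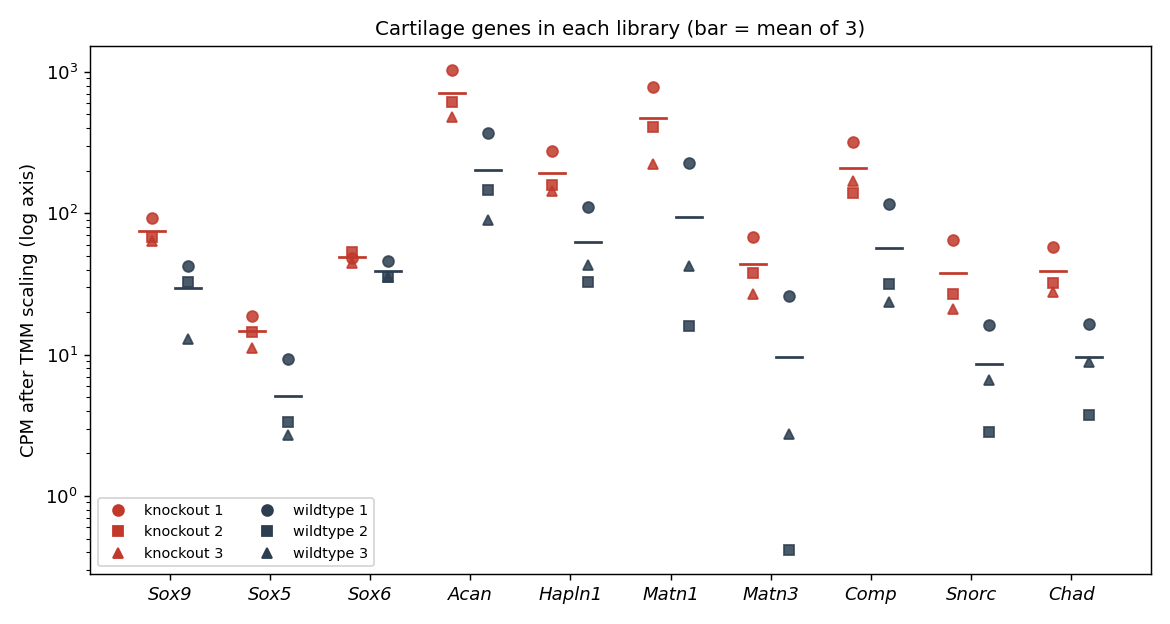
CPM after TMM scaling (log axis) of the 10 cartilage genes in each of the 6 libraries, with red symbols for knockout, dark symbols for wildtype, the symbol's shape for the replicate number and a bar at the mean of 3 libraries. Wildtype 1 is the highest wildtype library for all 10 genes, and the groups overlap only for Sox6 and Matn1.

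Sox9 (gene ID 20682, chromosome 11, 112782210 to 112787757 on the plus strand of mm10) is the master regulator of the chondrocyte lineage. It measured 93.3, 68.4 and 64.2 CPM in knockout 1, 2 and 3 and 42.4, 32.9 and 12.9 CPM in wildtype 1, 2 and 3. The 3 knockout libraries lay above all wildtype libraries, among which wildtype 3 was the lowest. Over 3 libraries each, the mean was 75.3 ± 15.7 CPM (SD) in knockout and 29.4 ± 15.1 CPM in wildtype, with a log2 fold change of 1.35 ± 0.36 (SE, edgeR adjusted p = 0.273).

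Sox5 (gene ID 20678, chromosome 6, 143828425 to 144782287, minus strand) encodes a SoxD protein that has no activation domain of its own and works beside Sox9. It measured 18.7, 14.5 and 11.1 CPM in the knockout libraries and 9.36, 3.34 and 2.69 CPM in wildtype 1, 2 and 3, from 311, 208 and 135 counts against 214, 48 and 45. Wildtype 1 lay close below knockout 3, and wildtype 2 and 3 lay far below both. The log2 fold change was 1.5 ± 0.43 (SE, edgeR adjusted p = 0.273). An exon of the antisense gene Sox5os1 overlaps an exon of Sox5, and reads from that stretch cannot be told apart, since strand use in counting is not given in the sources used here.

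Sox6 (gene ID 20679, chromosome 7, 115470872 to 116040776, minus strand), the SoxD partner of Sox5, differed between the groups by less than any other member. It measured 48.3, 53.2 and 44.6 CPM in knockout 1, 2 and 3 and 46.2, 35.3 and 35.4 CPM in wildtype 1, 2 and 3. Wildtype 1 lay above knockout 3, so the groups overlapped, and the whole range over the 6 libraries was 1.51-fold, against 7.23-fold for Sox9 and 6.94-fold for Sox5. Over 3 libraries each, the mean was 48.7 ± 4.34 CPM (SD) in knockout and 38.96 ± 6.28 CPM in wildtype, with a log2 fold change of 0.32 ± 0.17 (SE, edgeR adjusted p = 0.380).

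The RefSeq promoter table (build GRCm38.p6, the assembly of mm10) held windows for 7 of the 10 genes, 12 windows in all because Sox6 has 6 starts there. The 250 bases before each start were searched on both strands for ACAATG and ACAAAG, forms of the core that Sox proteins bind. Among 32851 such windows of all genes, 10.7% held ACAATG, 16.5% held ACAAAG and 25.2% held at least one of them. Among the 7 members with a window, 2 had a match, in 5 of the 6 Sox6 windows and in the Sox5 window. The windows of Acan, Hapln1, Matn1, Matn3 and Chad held neither motif. Base composition differed as well. G and C made up 34.0% to 60.8% of the Sox5 and Sox6 windows and 54.4% to 74.4% of the matrix gene windows. Its part in the matches was not tested. The sequences below show the Sox5 window, the Sox6 window with the most matches (4), and the windows of Matn1 and Chad as matrix genes without one, in lower case with matches in capitals, 5′ to 3′ on the strand of the gene. Sox5 lies at chr6:143947107-143947356 (minus), which is 1 start within a long gene, Sox6 at chr7:115995087-115995336 (minus), Matn1 at chr4:130944135-130944384 (plus) and Chad at chr11:94564797-94565046 (plus).
Sox5: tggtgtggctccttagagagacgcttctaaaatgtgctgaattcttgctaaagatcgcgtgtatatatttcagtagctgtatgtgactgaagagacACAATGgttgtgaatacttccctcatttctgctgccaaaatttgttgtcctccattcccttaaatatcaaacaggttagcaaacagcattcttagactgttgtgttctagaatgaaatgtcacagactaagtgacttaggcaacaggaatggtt
Sox6: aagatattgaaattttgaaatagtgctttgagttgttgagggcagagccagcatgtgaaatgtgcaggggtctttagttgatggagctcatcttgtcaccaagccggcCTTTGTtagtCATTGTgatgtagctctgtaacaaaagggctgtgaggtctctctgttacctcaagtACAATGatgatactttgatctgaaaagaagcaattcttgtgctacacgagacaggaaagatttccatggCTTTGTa
Matn1: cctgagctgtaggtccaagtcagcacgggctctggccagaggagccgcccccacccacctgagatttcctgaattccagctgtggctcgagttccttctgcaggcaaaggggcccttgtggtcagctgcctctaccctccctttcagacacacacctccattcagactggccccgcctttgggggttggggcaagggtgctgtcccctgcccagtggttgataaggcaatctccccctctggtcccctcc
Chad: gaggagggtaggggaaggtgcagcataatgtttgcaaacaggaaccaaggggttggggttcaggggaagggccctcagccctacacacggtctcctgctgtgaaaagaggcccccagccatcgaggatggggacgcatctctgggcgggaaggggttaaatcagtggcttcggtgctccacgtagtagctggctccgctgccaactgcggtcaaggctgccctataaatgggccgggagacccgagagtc
The Sox5 match starts 154 bases before the start site. Those of the Sox6 window start 142, 132, 76 and 7 bases before it. A match of letters is a description and not a binding site.

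Acan (gene ID 11595, chromosome 7, 79053226 to 79115099, plus strand) encodes aggrecan, the proteoglycan whose chondroitin sulfate chains hold water in cartilage. It measured 1033, 617 and 478 CPM in knockout 1, 2 and 3 and 371, 146 and 90.1 CPM in wildtype 1, 2 and 3, from 5810 to 17224 counts against 1509 to 8485. The groups did not overlap, and wildtype 1 was 3.14-fold above the mean of wildtype 2 and 3, while the lowest knockout library was 1.29-fold above wildtype 1. Over 3 libraries each, the mean was 710 ± 289 CPM (SD) in knockout and 202 ± 149 CPM in wildtype, with a log2 fold change of 1.81 ± 0.49 (SE, edgeR adjusted p = 0.273).

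Hapln1 (gene ID 12950, chromosome 13, 89540529 to 89611832, plus strand) encodes the link protein that locks aggrecan to hyaluronan. It measured 278, 158 and 144 CPM in the knockout libraries and 111, 32.6 and 43.2 CPM in wildtype 1, 2 and 3. All knockout libraries exceeded all wildtype libraries. The log2 fold change was 1.63 ± 0.44 (SE, edgeR adjusted p = 0.273), on means of 193 ± 73.3 and 62.2 ± 42.6 CPM (SD, n = 3 each).

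Matn1 and Matn3 encode matrilins, adaptor proteins that form filaments between collagen fibrils and aggrecan, and both spread most widely over the libraries. Matn1 (gene ID 17180, chromosome 4, 130944385 to 130955476, plus strand) measured 783, 411 and 223 CPM in knockout 1, 2 and 3 and 226, 16.1 and 42.4 CPM in wildtype 1, 2 and 3. Wildtype 1 lay just above knockout 3, and the highest library was 48.8-fold above the lowest. Its log2 fold change was the largest of the 10, 2.31 ± 0.83 (SE, edgeR adjusted p = 0.302), and its standard error the largest but for Matn3.

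Matn3 (gene ID 17182, chromosome 12, 8947929 to 8972028, plus strand) measured 67.9, 37.6 and 26.7 CPM in the knockout libraries and 25.8, 0.417 and 2.75 CPM in wildtype 1, 2 and 3. The value of wildtype 2 rested on 6 counts and that of wildtype 3 on 46, against 591 in wildtype 1. Wildtype 1 was 16.3-fold above the mean of wildtype 2 and 3, and knockout 3 was 1.04-fold above wildtype 1. The log2 fold change was 2.15 ± 0.94 (SE, edgeR adjusted p = 0.338), 4.73 without wildtype 1 and 0.76 with it as the only control, so this gene depended most on the choice of controls.

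Comp (gene ID 12845, chromosome 8, 70373548 to 70382066, plus strand) encodes cartilage oligomeric matrix protein, a member of the thrombospondin family that binds collagens and is also made by tendon and ligament cells. It measured 321, 140 and 170 CPM in knockout 1, 2 and 3 and 116, 31.9 and 23.4 CPM in wildtype 1, 2 and 3. The groups did not overlap, and it was the only member for which knockout 2 and not knockout 3 was the lowest knockout library. The log2 fold change was 1.88 ± 0.56 (SE, edgeR adjusted p = 0.277). A list of 6 tendon markers, Scx, Mkx, Tnmd, Fmod, Kera and Thbs4, summed to 501 to 732 CPM in the knockout and 409 to 519 CPM in the wildtype libraries. Most of that sum came from Fmod. All 6 markers had a positive log2 fold change, with a median of 0.39 and a maximum of 1.87. The part of this list in the Comp values was not tested.

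Snorc (gene ID 73234, chromosome 1, 87470201 to 87475482, plus strand), a small transmembrane proteoglycan of chondrocytes, measured 64.8, 26.9 and 21.1 CPM in the knockout libraries. In wildtype 1, 2 and 3 it measured 16.2, 2.85 and 6.57 CPM, below every knockout library. The log2 fold change was 2.12 ± 0.58 (SE, edgeR adjusted p = 0.273).

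Chad (gene ID 12643, chromosome 11, 94565047 to 94569127, plus strand) encodes chondroadherin, a leucine-rich repeat protein through which chondrocytes attach to their matrix. It measured 57.8, 32.2 and 27.8 CPM in knockout 1, 2 and 3 and 16.4, 3.76 and 8.84 CPM in wildtype 1, 2 and 3. The gap between the groups was the widest of the 10 genes, with knockout 3 lying 1.7-fold above wildtype 1. It also had the smallest unadjusted p of the 10 (0.00162), which ranked 63 among the 13505 genes tested (log2 fold change 2.01 ± 0.46, SE, edgeR adjusted p = 0.273). Without the filter on low counts edgeR called Chad alone of the 10 (adjusted p = 0.0376, where 0.121% of genes were called higher).

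Levels of different genes were compared per kilobase of the longest coding transcript in GENCODE M21. In the knockout libraries Matn1 had the highest level, 236 ± 143 CPM per kilobase (SD, n = 3), followed by Acan (96.5 ± 39.3), Comp (87.1 ± 40.1), Snorc (78.7 ± 49.6), Hapln1 (33.8 ± 12.8), Chad (23.4 ± 9.66), Sox9 (18.2 ± 3.81), Matn3 (14.6 ± 7.07), Sox6 (5.62 ± 0.50) and Sox5 (2.04 ± 0.52). Neighbours in this order from Matn1 down to Matn3 differed by less than the larger of their SDs. Matn3, Sox6 and Sox5 differed from each other by more than that. In the wildtype libraries the order of the first 5 was the same, led by Matn1 (47.3 ± 57.0) and Acan (27.5 ± 20.2), and no neighbours differed by more than the larger SD. Sox9 there (7.11 ± 3.64) lay above Chad (5.74 ± 3.77), and Sox6 (4.50 ± 0.72) above Matn3 (3.21 ± 4.66). The Snorc transcript in that annotation is short, at 478 bases, so its level per kilobase depends on this model.

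The order of the libraries was much the same from gene to gene. Knockout 1 was the highest of all libraries for 9 of the 10 genes, and wildtype 1 the highest wildtype library for 10 of 10. Summed over the 10 genes, the level was 2766, 1559 and 1210 CPM in knockout 1, 2 and 3, and 980, 305 and 268 CPM in wildtype 1, 2 and 3. On the log2 scale the mean over the genes was 7.04, 6.31 and 6.02 in the knockout and 5.70, 3.59 and 3.97 in the wildtype libraries. Wildtype 1 thus lay 1.92 above the mean of wildtype 2 and 3, while the mean of the knockout libraries lay 0.76 above wildtype 1. The spread within the wildtype group was therefore larger than the step from wildtype 1 to the knockout libraries.

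Without wildtype 1, the log2 fold changes were 1.704 for Sox9, 2.27 for Sox5, 2.57 for Acan, 2.33 for Hapln1, 3.98 for Matn1, 2.91 for Comp, 2.96 for Snorc and 2.61 for Chad. With wildtype 1 as the only control they were 0.82, 0.65, 0.92, 0.79, 1.05, 0.84, 1.21 and 1.26 in the same order. Every one of the 10 values, with Matn3 and Sox6, was smaller against wildtype 1 alone than against wildtype 2 and 3.

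**Figure D2:**
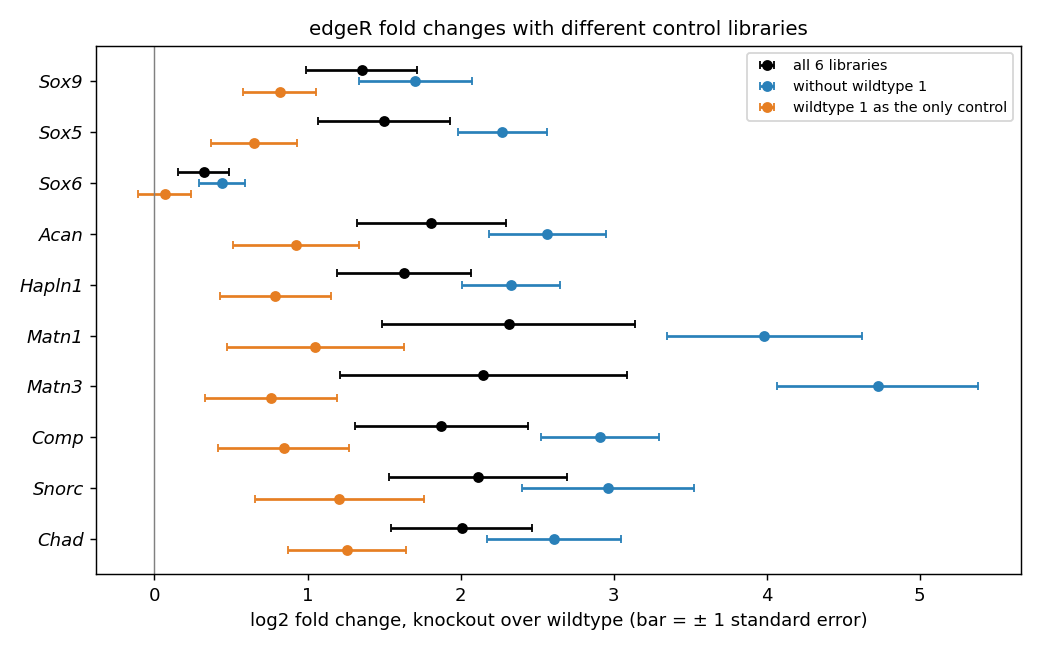
edgeR log2 fold changes of knockout over wildtype with their standard errors for each gene, with all 6 libraries (black), without wildtype 1 (blue) and with wildtype 1 as the only control (orange). The blue values exceed the black and the orange lie below them for all 10 genes, most widely for Matn3 (4.73, 2.15 and 0.76) and least for Sox6 (0.44, 0.32 and 0.07).

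To see whether the members differed from each other, each was divided by Acan in the same library, a ratio that does not depend on scaling. The ratios of Sox5 and Comp to Acan varied least. The SD of the log2 ratio over the 6 libraries was 0.23 for Sox5 and 0.28 for Comp, with ranges of 0.72 and 0.71, while the SD of their own log2 CPM was 1.15 and 1.47. Hapln1 and Sox9 followed, with an SD of the log2 ratio of 0.38 and 0.45 and a range of 1.10 and 1.32. Between wildtype 2 and wildtype 3 the log2 ratio of Hapln1 went from -2.16 to -1.06, since Acan was lower in wildtype 3 and Hapln1 was higher. For Sox5 the log2 ratios were -5.79, -5.42 and -5.43 in the knockout libraries, against -5.31, -5.45 and -5.07 in wildtype 1, 2 and 3, which overlap.

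The Sox6 ratio was the only one of the 9 whose groups did not overlap. In the order of their numbers, the knockout libraries had log2 ratios of -4.42, -3.54 and -3.42, and the wildtype libraries -3.00, -2.05 and -1.35. Sox6 itself varied little (SD of log2 CPM 0.24) and the Acan groups did not overlap, so this separation restates that of Acan. No ratio passed the exact two-sided permutation test, in which 3 against 3 libraries cannot give a p below 0.10. After Benjamini-Hochberg adjustment over the 9 ratios the p-values were 0.675 to 0.80.

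The matrilins stood in much the same proportion to Acan in the knockout libraries and wildtype 1, and in a lower one in wildtype 2. The log2 ratio of Matn3 was -3.93, -4.04, -4.16 and -3.84 in knockout 1, 2 and 3 and wildtype 1, then -8.45 in wildtype 2 and -5.04 in wildtype 3. That of Matn1 was -0.40, -0.59, -1.10 and -0.72 in the same 4 libraries, -3.18 in wildtype 2 and -1.09 in wildtype 3. Snorc and Chad also had their lowest ratios in wildtype 2 (-5.68 and -5.28) and their highest in wildtype 3 (-3.78 and -3.35). Wildtype 2 and 3, although alike in their summed level, therefore differed in the makeup of the cartilage transcripts, and the counts of several members there were low (41 of Snorc, 54 of Chad and 6 of Matn3 in wildtype 2).

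**Figure D3:**
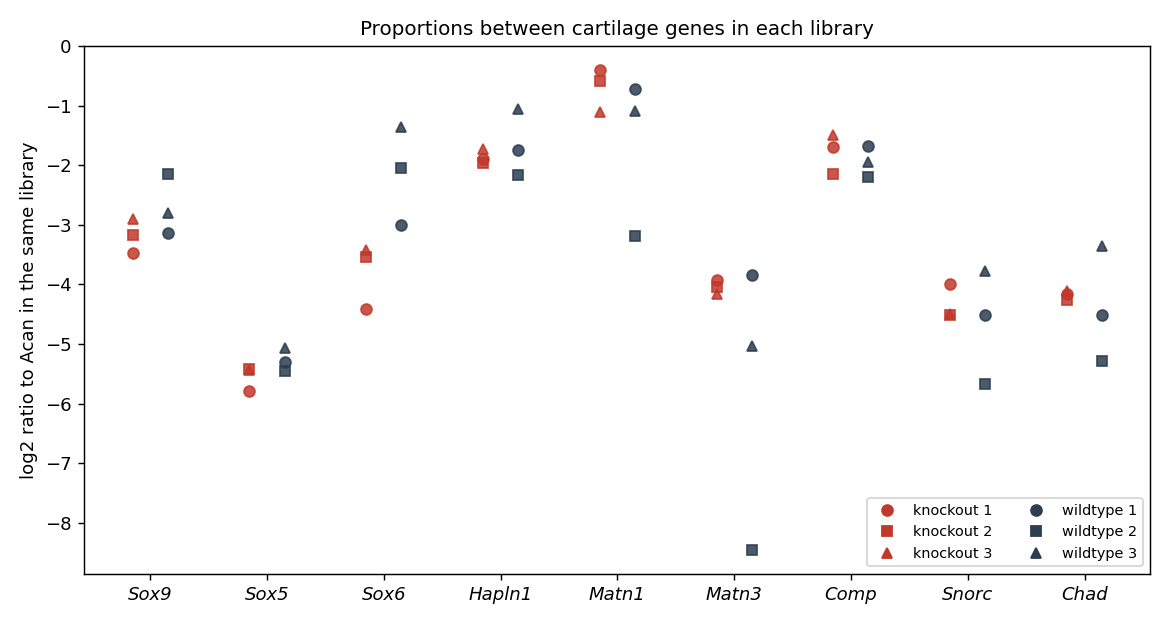
Log2 ratio of each gene to Acan in the same library, with red symbols for knockout, dark symbols for wildtype and the symbol's shape for the replicate number. Sox5 and Comp span the least (0.72 and 0.71), Hapln1 spans 1.10, the Sox6 groups do not overlap, and Matn3 in wildtype 2 lies at -8.45.

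Other cartilage genes were examined in lists, none of whose genes passed edgeR's threshold over all genes. The list counts that follow stand beside 8.26% of all genes higher at an unadjusted p under 0.05, 10.6% without overlap and, without wildtype 1, 2.13% called higher. Like the members, the lists were chosen with earlier results of these data known, so the counts are descriptions. Of 8 cartilage collagen genes all 8 were higher at an unadjusted p under 0.05 (median log2 fold change 2.07), and in 5 the groups did not overlap. Col2a1, the main collagen of cartilage, measured 15630, 8059 and 4958 CPM in knockout 1, 2 and 3 and 4288, 518 and 606 CPM in wildtype 1, 2 and 3 (log2 fold change 2.40 ± 0.79, SE). Col9a1 (2.31 ± 0.79) and Col9a2 (2.28 ± 0.79), chains of the collagen on the surface of type II fibrils, and Col11a1 (0.84 ± 0.24) were also without overlap. Without wildtype 1 the collagen median was 3.10 and 5 of the 8 were called, and against wildtype 1 alone it was 0.99. Of 14 other cartilage proteins 13 were tested, all were positive and 10 were higher at an unadjusted p under 0.05 (median 1.89, 2.68 without wildtype 1 with 9 called, and 0.88 against wildtype 1 alone). Matn4, another matrilin, measured 230 ± 56.0 against 94.9 ± 30.6 CPM (SD, n = 3 each; 1.28 ± 0.26), and Chadl, a relative of chondroadherin, 45.7 ± 26.1 against 11.9 ± 8.18 CPM (1.94 ± 0.53). Cilp2, of the cartilage intermediate layer protein family (1.33 ± 0.27), and the secreted factor Cytl1 (2.59 ± 0.73) did not overlap either. Cytl1 was low, at 7.62, 4.03 and 5.51 CPM in knockout 1, 2 and 3, and had 6 and 2 counts in wildtype 2 and 3.

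Enzymes and transporters that build the sulfated chains of aggrecan were less uniform, with 14 of 16 positive and a median log2 fold change of 0.42 (0.47 without wildtype 1 with 4 called, and 0.21 against wildtype 1 alone). At an unadjusted p under 0.05, 6 were higher and 1 was lower. Slc26a2, the sulfate transporter mutated in several chondrodysplasias, measured 35.1 ± 4.16 against 16.8 ± 6.70 CPM (SD, n = 3 each; 1.06 ± 0.26), and Xylt1, which starts the chains, 21.9 ± 6.83 against 8.23 ± 5.14 CPM (1.40 ± 0.40). Csgalnact1, which adds the first galactosamine sugar of chondroitin, was positive with overlap (1.73 ± 0.57), and the sulfotransferase Chst13 was the one lower at that threshold (-0.81 ± 0.30). Among proteases that cut cartilage matrix and their inhibitor, 7 of 8 genes were tested and all 7 were positive (median 0.63, 0.81 without wildtype 1 with 0 called), with the aggrecanases Adamts4 (0.74 ± 0.29) and Adamts5 (0.67 ± 0.28), Adamts1 (0.93 ± 0.44) and the inhibitor Timp3 (0.47 ± 0.19) without overlap.

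Of 14 regulators of chondrocytes outside the Sox trio 12 were tested, with 4 higher at an unadjusted p under 0.05. The median was 0.34 (0.47 without wildtype 1 with 3 called), and 2 were negative, the lowest at -0.41. Foxa3, a forkhead factor, had 3.84, 2.36 and 1.23 CPM in the knockout libraries, 0.962 CPM in wildtype 1 and no count in wildtype 2 and 3. The growth plate signal Ihh measured 11.3 ± 3.06 against 6.04 ± 2.90 CPM (SD, n = 3 each; 0.90 ± 0.38) and the forkhead factor Foxc1 48.8 ± 5.72 against 32.6 ± 10.8 CPM (0.58 ± 0.23), both with overlap. Pthlh, the gene of parathyroid hormone-related protein, measured 1.56, 2.29 and 0.823 CPM in the knockout libraries and 0.743, 0 and 0.0597 CPM in wildtype 1, 2 and 3, without overlap (2.37 ± 0.97). Of 10 Sox genes outside the trio 8 were tested, with a median of 0.23 (0.29 without wildtype 1 with 1 of 9 called) and 2 higher at that threshold, namely Sox11 (1.31 ± 0.53) and Sox7, which is known from endothelium (1.48 ± 0.65), both with overlap. The abundant Sox4 lay at 91.5 ± 7.86 against 75.9 ± 3.88 CPM (0.27 ± 0.15), with all knockout libraries above all wildtype libraries. Sox12, 1 of 2 negative genes among the 8, lay at 13.1 ± 0.711 against 17.2 ± 2.92 CPM (-0.39 ± 0.18). All its knockout libraries lay below all wildtype libraries, where 1325 of 13505 genes did so. Among relatives of the matrix members, 10 of 12 were tested with a median of 0.43 (0.40 without wildtype 1 with 2 called). Of these 2 were negative, the lowest at -0.46. The thrombospondins Thbs1 (0.68 ± 0.24) and Thbs2 (0.49 ± 0.19) and the lectican Bcan (0.57 ± 0.20) joined Matn4 in having all knockout libraries above all wildtype libraries.

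**Figure D4:**
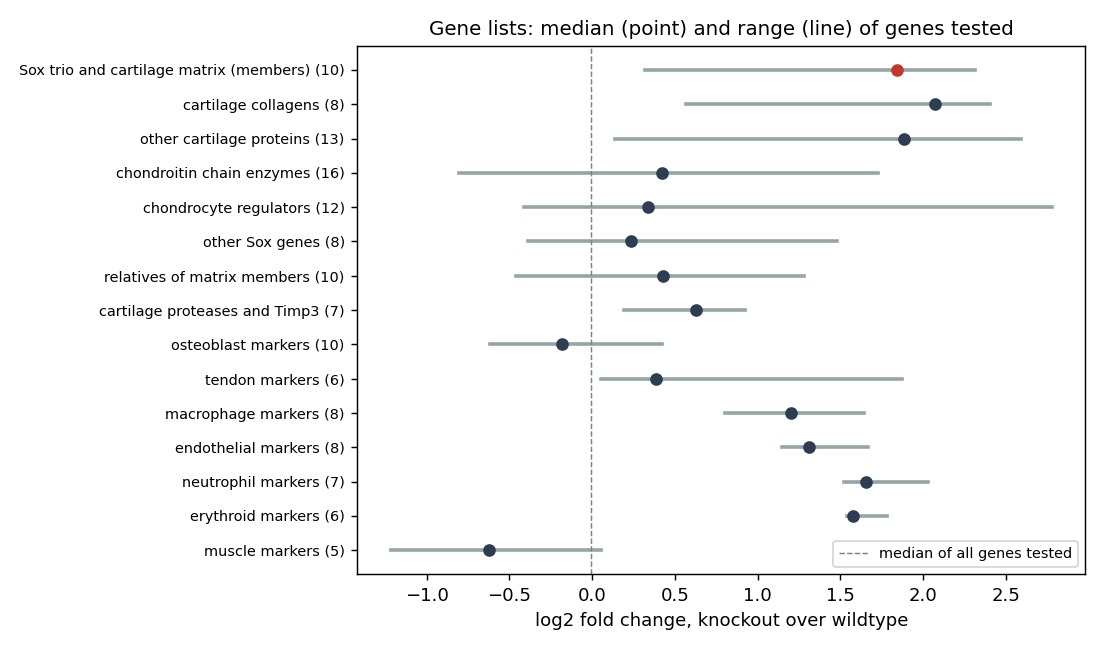
Median (point) and range (line) of edgeR log2 fold changes of knockout over wildtype for the 10 cartilage genes (red), the other cartilage lists and markers of other cell types, with the number of genes tested in brackets and the median of all genes as a dashed line. The medians of the members (1.84), the cartilage collagens (2.07) and the other cartilage proteins (1.89) lie to the right of the other lists shown, an order that does not hold against wildtype 1 alone, where the neutrophil (2.24), erythroid (1.14) and macrophage (1.09) medians exceed those of the members (0.83), the collagens (0.99) and the other cartilage proteins (0.88).

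Among 9608 other named genes whose mean reached 5 CPM, the 6 whose profile over the 6 libraries was nearest to the mean profile of the members were Susd5, Stk10, Colgalt2, Vwf, Egr4 and Csgalnact1. Their Euclidean distances on centred log2 CPM were 0.47, 0.51, 0.53, 0.54, 0.57 and 0.57, where the members themselves ran from 0.45 (Hapln1) to 3.11 (Matn3) and the median over the other genes was 3.11. Susd5, which was in the list of other cartilage proteins, measured 95.2, 59.6 and 44.5 CPM in knockout 1, 2 and 3 and 38.2, 6.33 and 8.72 CPM in wildtype 1, 2 and 3. The others include Vwf, the clotting factor gene of endothelium, Stk10, a kinase known from lymphocytes, and Egr4, an immediate-early transcription factor.

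Markers of several other cell types lay higher in the knockout libraries along with the cartilage genes. All 8 macrophage markers were positive (median 1.20), 7 of them at an unadjusted p under 0.05 and 4 without overlap. They were led in abundance by the growth factor receptor Csf1r (1.24 ± 0.33) and the complement gene C1qc (1.21 ± 0.33), and the sum of the list ran from 92.8 to 226 CPM in the knockout and from 48.4 to 81.9 CPM in the wildtype libraries. All 8 endothelial markers were positive (median 1.31), 7 of them at that p and 4 without overlap. They were led in abundance by the junction genes Cdh5 (1.32 ± 0.44) and Pecam1 (1.30 ± 0.41), both with overlap. The sums of the list were 118 to 203 against 37.1 to 117 CPM. All 7 neutrophil markers were positive (median 1.65), 5 of them at that p and 4 without overlap. They were led in abundance by the granulocyte genes S100a9 (1.65 ± 0.55), with overlap, and Ngp (2.03 ± 0.50), without. The sums of the list were 53.2 to 181 against 19.5 to 51.7 CPM. The 6 erythroid markers were positive too (median 1.57), 1 of them at that p and 0 without overlap. They were led by the globin genes Hba-a2 (1.78 ± 0.73) and Hba-a1 (1.59 ± 0.76), near-identical copies whose reads can be shared, with overlapping sums of 49.9 to 401 against 17.5 to 115 CPM. Knockout 1 had the highest sum in each of these 4 lists, as it had for 9 of the 10 members.

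The lists differed in how far they followed wildtype 1. Against wildtype 1 alone the endothelial median was 0.50 and without it 2.09 with 7 of 8 called, a shift in the same direction as that of the members (0.83 and 2.59). The macrophage median was 1.09 against wildtype 1 alone and 1.23 without it, the neutrophil median 2.24 and 1.45, and the erythroid median 1.14 and 1.93, with 0 called in each of the 3 lists without wildtype 1. Against wildtype 1 alone, the medians of these 3 lists therefore exceeded that of the members. These differences between lists were not tested. All 6 tendon markers were positive (median 0.39, maximum 1.87), 1 of them at an unadjusted p under 0.05 and 0 without overlap. Their median was 0.59 against wildtype 1 alone and 0.35 without it, with 0 called. The most abundant were the small proteoglycan Fmod at 0.45 ± 0.20 and the membrane protein Tnmd at 0.32 ± 0.20. Skeletal muscle markers had a median of -0.62 over 5 genes tested, with the actin Acta1 at -0.73 ± 0.72 and the troponin Tnnc2 at -1.22 ± 0.89, and sums of 6.50 to 34.1 against 5.25 to 52.2 CPM. Osteoblast markers had a median of -0.18, with Col1a1 at -0.10 ± 0.25 and Col1a2 at -0.12 ± 0.23. No gene of these lists was at 0 in all 6 libraries, and the part of other cell types in the values of the cartilage genes was not tested.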

How the data were processed

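The deposited table held raw counts of reads per Entrez gene ID for 6 libraries, and per the submitters' processing notes CASAVA 1.7, Subread and featureCounts were used with mm10. Strandedness is not given in the sources used here. Columns were assigned by name, and 0 were left over. Names and coordinates came from RefSeq (GRCm38.p6) and GENCODE M21, which named 93.1% of 27179 IDs. The 10 members and all gene lists were chosen with earlier results of these data known. Counts were tested with edgeR 4.0.16 in R 4.3.3 (filterByExpr, TMM factors of 0.813 to 1.09, two-sided quasi-likelihood test, Benjamini-Hochberg over 13505 genes, threshold 0.05), after tests on simulated data. Levels are TMM-scaled CPM, fold changes log2 ± SE. Log2 profiles used a prior count of 2. Ratios to Acan were tested by exact permutation. Alternatives were other scalings and filters, DESeq2 1.42.0, limma 3.58.1 voom, the replicate number as a block, and other sets of libraries. Named were all members, Cdc73, Col2a1, up to 4 genes of smallest p in each cartilage list, the 2 most abundant genes of each marker list and the 6 nearest profiles. Library totals were 13591925 to 20993962 counts, and values on few counts, such as Matn3 in wildtype 2 and 3, are the least precise.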

Additional observations from a re-analysis of the deposited data

How the results depend on the processing

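All 160 log2 fold changes of the 10 members under the 16 alternatives were positive, and 20 passed the threshold. For members whose groups do not overlap, leaving out a library cannot change the sign. Over all genes edgeR called 0 (1974 at an unadjusted p under 0.05), 24 without the filter on low counts and 236 with the replicate number as a block, DESeq2 289, and leaving out 1 library gave 0 to 409, the 409 without wildtype 1. Members called numbered 0, then 1 without the filter (0.121% of genes called higher), 2 with DESeq2 (1.93%) and 9 with the replicate block (1.67%). With 1 library left out they numbered 0 to 8, the 8 without wildtype 1 (2.13%). Whether equal replicate numbers mark paired samples was left undecided, since deviations from means of 3 libraries cannot settle it. These deviations correlated at 0.12, -0.07 and 0.22 across genes for numbers 1, 2 and 3. Knockout 1 and 3 correlated best with the wildtype library of their own number, and knockout 2 with wildtype 1 (0.35). Members without overlap numbered 8 (10.6% of all genes), 3 with library size alone (2.18%), and 8 to 10 with 1 library left out (12.1% to 23.1%). They numbered 10 without knockout 3 (20.4%) or without wildtype 1 (23.1%). The median log2 fold change was 1.84, 0.83 with wildtype 1 as the only control, and 1.43 to 2.59 with 1 library left out. Why the calls differ between tests was not tested. Depth limits Matn3, Snorc, Sox5 and Chad in wildtype 2, at 6 to 54 counts, and Sox5 and Matn3 in wildtype 3, at 45 and 46.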
